A study of Homo sapiens with 6 samples.

Results

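Genes of programmed cell death were followed after cinobufagin in ARPE-19, an established line of human retinal pigment epithelium. The genes were taken from a list of symbols, drawn up by role with earlier results of these data known, covering the BCL2 family, the caspases, the inhibitor of apoptosis proteins (IAPs) and the death receptor and necroptosis machinery. Of the 41 listed genes, 40 were found among the 17945 genes of the deposited table, and RIPK3 is not analysed here. RNA sequencing compared 3 libraries of cells that received 320 nM cinobufagin for 24 h with 3 libraries of cells that received DMSO for the same 24 h. Cinobufagin is a toad venom steroid that inhibits the sodium pump. Both groups were the same cell line, labelled WT, grown in serum-containing medium, so the drug is the labelled difference between them. Whether the 3 libraries within a group were grown as separate cultures is not stated, so the p-values speak for the spread among these libraries, part or all of which may be technical.

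FPKM counts fragments per length of transcript and per mapped fragments of a library, which allows levels of different genes to be set side by side within a library. The sources used here give no read totals, so the depth is unknown. Summed FPKM ranged from 534694 to 560721 over the 6 libraries. Across the 11599 genes tested, libraries of a group correlated at 0.996 to 0.997 (Pearson's r across genes, which are not independent replicates) and libraries of different groups at 0.962 to 0.963. Of 11 retinal pigment epithelium markers, 7 reached the level needed for testing. Among these, PMEL, BEST1 and LRAT were low, at means of 2.04, 1.21 and 1.02 FPKM in DMSO libraries. The keratin KRT8 was at 454 ± 26.7 FPKM in DMSO libraries and the pigment cell factor MITF at 45.1 ± 2.22 (SD, n = 3), whereas the visual cycle isomerase RPE65 was at most 0.03 FPKM and TTR was listed at 0 in every library. Of 4 leukocyte markers, PTPRC was listed at 0 in all 6 libraries, CD14 and LYZ were at most 0.29 FPKM, and CD68, a lysosomal protein, was at 118 ± 7.40 FPKM in DMSO and 79.4 ± 0.527 with cinobufagin. Of 6 fibroblast markers only PDGFRB reached the level for testing, at a mean of 13.7 FPKM in DMSO libraries. Of 5 neural retina markers only PAX6 did, at means of 60.2 FPKM in DMSO and 102.6 FPKM with cinobufagin.

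The BCL2 family sets whether the outer mitochondrial membrane stays intact. Pro-survival members bind and restrain BAX and BAK1, the proteins that open the membrane, and BH3-only proteins either occupy the pro-survival members or activate BAX and BAK1 directly. Once the membrane opens, cytochrome c joins APAF1 to activate CASP9, while death receptors at the cell surface reach CASP8 through adaptors, and IAPs and CFLAR hold caspases in check. Retinal pigment epithelium is a largely non-dividing layer that supports photoreceptors, and its loss accompanies macular degeneration.

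Among the listed genes that could be tested, the widest movements were in BH3-only genes, where BMF rose 3.92-fold and HRK fell 2.53-fold. Because this pair marks the ends of the range, the 250 bases before each annotated start are shown here from RefSeq on GRCh38.p14, 5′ to 3′ on the gene's strand. BMF has a pair of starts in that table and HRK has a single start. Capitals mark matches to any of 4 motifs, searched on both strands and spelled further on.
BMF, chr15:40108880-40109129, minus strand: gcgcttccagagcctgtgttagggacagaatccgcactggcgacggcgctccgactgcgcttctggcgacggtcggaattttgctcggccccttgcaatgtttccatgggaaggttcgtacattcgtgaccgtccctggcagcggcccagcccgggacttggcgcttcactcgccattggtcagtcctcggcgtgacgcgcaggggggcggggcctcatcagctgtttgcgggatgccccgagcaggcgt
BMF, chr15:40106967-40107216, minus strand: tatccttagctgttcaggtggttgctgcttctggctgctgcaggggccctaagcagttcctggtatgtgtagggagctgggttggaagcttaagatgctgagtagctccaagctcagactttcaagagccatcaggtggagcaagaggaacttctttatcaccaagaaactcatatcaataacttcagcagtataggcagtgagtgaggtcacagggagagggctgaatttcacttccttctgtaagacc
HRK, chr12:116881442-116881691, minus strand: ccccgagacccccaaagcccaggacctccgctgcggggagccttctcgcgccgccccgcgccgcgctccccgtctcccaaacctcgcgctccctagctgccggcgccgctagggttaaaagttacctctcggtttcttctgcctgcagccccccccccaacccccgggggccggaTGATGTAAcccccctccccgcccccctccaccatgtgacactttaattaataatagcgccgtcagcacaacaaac
The first BMF window held 65.2% G and C, the second 48.8%, and the HRK window 66.4%.

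Of the 40 genes found, 37 had at least 1 FPKM in at least 3 libraries and were tested in a single fit over all 11599 such genes (limma-trend on log2 of FPKM + 1, two-sided, Benjamini-Hochberg adjustment across the whole set). Cell death genes moved in both directions. With cinobufagin 11 were higher, where the same rule called 39.2% of all genes tested higher, and 15 were lower, where it called 28.4% lower. The other 11 did not pass the adjusted p of 0.05. In either direction 26 of 37, or 70.3%, were called, against 67.7% of all genes tested, so the share called was near the background. The counts given below for each role and each other list stand beside that same 67.7%. Their median log2 fold change was -0.08 beside 0.06 over all genes tested, and their median size of change was 0.22 beside 0.26. The 2 groups of libraries did not overlap in 26 of the 37 members and in 70.8% of all genes tested. A lack of overlap, given below for single members, was thus common across the whole set. A change of at least 1 on the log2 scale was seen in BMF and HRK, against 4.3% of all genes tested. CASP4 passed the filter only through the DMSO libraries. The added 1 FPKM shrinks the fold change of genes at low levels. In bulk RNA fewer cells of a kind and less RNA per cell cannot be told apart.

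**Figure D1:**
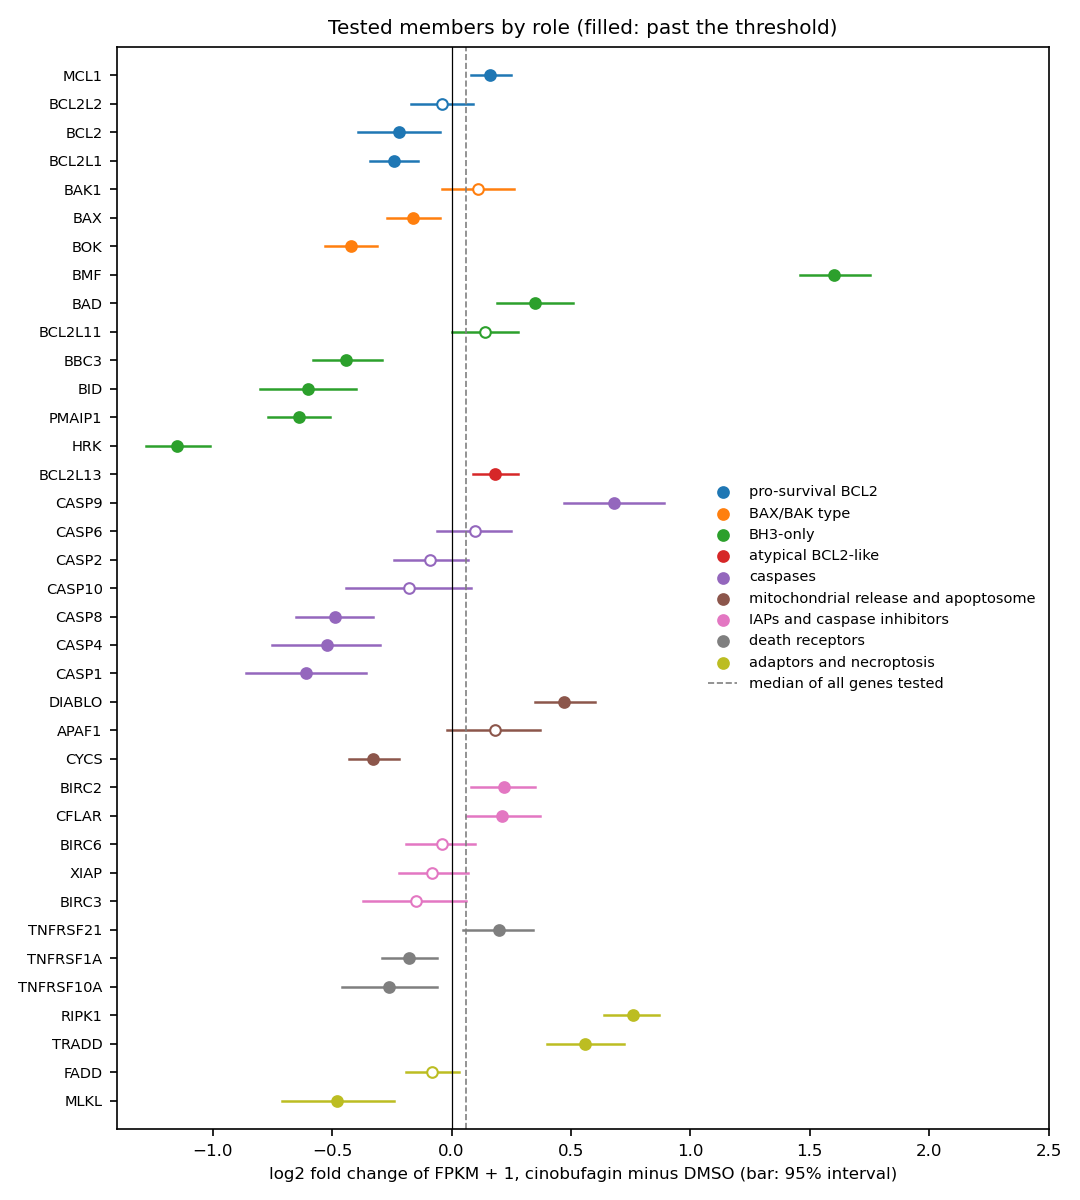
Log2 fold change of FPKM + 1, cinobufagin minus DMSO, for the 37 tested members ordered by role, with bars for the 95% interval from limma, filled points for members past the adjusted p of 0.05, and a dashed line at the median of all genes tested (0.06). BMF at 1.60 and HRK at -1.15 lie at the ends, and all other tested members lie between -0.64 and 0.76.

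Among the tested members, BH3-only genes carried the largest changes in both directions. Of 7 tested, 2 were higher, 4 lower and 1 did not pass, where 67.7% of all genes tested were called in either direction. Their median log2 fold change was -0.44 and their median size 0.60, beside 0.06 and 0.26 over all genes tested. BMF (gene ID 90427, chromosome 15, 40087890 to 40108892 on GRCh38) encodes a BH3-only protein that is held at the cytoskeleton through a dynein light chain until released. It stood at 2.44, 2.20 and 2.34 FPKM in DMSO replicates 1 to 3 and at 8.90, 9.37 and 9.08 FPKM in the cinobufagin libraries. The cinobufagin values lay wholly above the DMSO values, with a log2 fold change of 1.60 (adjusted p = 2.81e-09 by limma, SE 0.07). This was the 11th largest rise of the 11599 genes tested, from a DMSO level at the 10.2 percentile of those genes. BMF shares 8.46% of its exon bases with the antisense gene BMF-AS1. With a pseudocount of 0.1 the log2 fold change was 1.93, the highest of its 13 alternatives.

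BAD, a BH3-only protein that binds BCL2L1 and is switched off by phosphorylation, was the most abundant gene of its kind. Its DMSO libraries stood at 46.06, 37.97 and 36.28 FPKM and its cinobufagin libraries at 52.23, 51.39 and 50.23 FPKM. The groups did not overlap, although DMSO replicate 1 lay nearer to the treated libraries than the other two did, and the log2 fold change was 0.35 (adjusted p = 0.00106 by limma, SE 0.07). BAD shares 23.7% of its exon bases with GPR137 on the opposite strand in GENCODE 29, and the sources used here do not give the strand setting of the counting. BCL2L11, which encodes BIM, an activator of BAX and a partner of all pro-survival proteins, was at 4.40 ± 0.0802 FPKM in DMSO and 4.96 ± 0.206 with cinobufagin (SD, n = 3 each) and did not pass (adjusted p = 0.0773 by limma). It passed without the mean-variance trend (adjusted p = 0.0322 by limma), its alternatives running from 0.0322 to 0.199.

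HRK (gene ID 8739, chromosome 12, 116856144 to 116881441), a BH3-only gene best known from neurons whose product binds BCL2L1, fell the most of all members. Its DMSO values were 9.57, 10.16 and 9.32 FPKM and its cinobufagin values 3.87, 3.83 and 3.78 FPKM. All treated libraries lay below all controls and within 0.1 FPKM of each other, giving a log2 fold change of -1.15 (adjusted p = 2.75e-08 by limma, SE 0.06). PMAIP1, which encodes NOXA, the BH3-only partner of MCL1, was at 12.45, 13.79 and 13.27 FPKM in DMSO and at 8.39, 7.87 and 8.0 FPKM in cinobufagin libraries. It fell by 0.64 on the log2 scale without overlap between groups (adjusted p = 2.06e-06 by limma, SE 0.06).

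BID, which CASP8 cleaves to carry a death receptor signal to mitochondria, stood at 9.37, 9.25 and 8.88 FPKM in DMSO and at 5.09, 6.85 and 5.30 FPKM in cinobufagin libraries. It was lower in every treated library, with cinobufagin replicate 2 the highest of them, and fell by 0.60 on the log2 scale (adjusted p = 9.71e-05 by limma, SE 0.09). BBC3, which encodes PUMA, a BH3-only protein that binds every pro-survival member, went from 11.7 ± 0.315 to 8.37 ± 0.708 FPKM (SD, n = 3 each) and fell by 0.44 on the log2 scale (adjusted p = 0.000109 by limma). BIK, an endoplasmic reticulum BH3-only gene, was between 0 and 0.52 FPKM in the 6 libraries and was not tested.

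The summed level of the 8 BH3-only genes was 90.7 ± 5.43 FPKM in DMSO and 91.8 ± 2.58 with cinobufagin (SD, n = 3 each), with overlapping groups, while its make-up differed. BMF made up 2.57% ± 0.134 of that sum in DMSO and 9.94% ± 0.313 in cinobufagin libraries. BAD went from 44.1% ± 3.08 to 55.9% ± 0.941 and HRK from 10.7% ± 0.745 to 4.17% ± 0.0845. These shares are descriptions and were not tested.

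**Figure D2:**
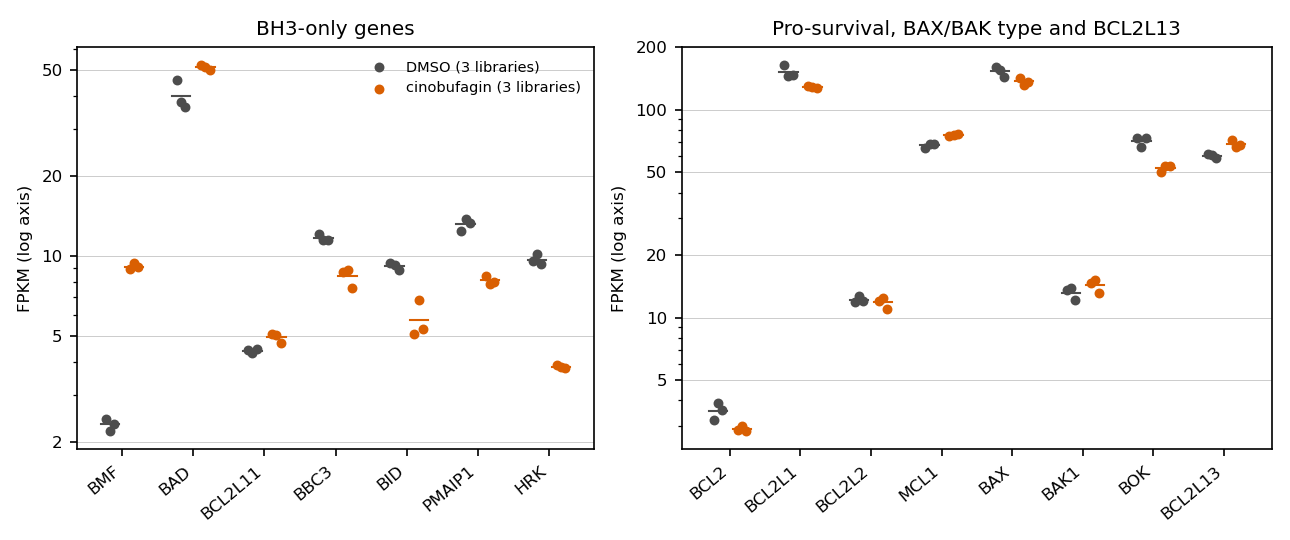
FPKM on a log axis in each of 3 DMSO (grey) and 3 cinobufagin (orange) libraries, with short lines at the group means, for the tested BH3-only genes (left) and for the pro-survival, BAX/BAK type and BCL2L13 genes (right). BMF lies higher and HRK, PMAIP1, BID and BBC3 lie lower in all 3 cinobufagin libraries, whereas genes on the right differ by at most 1.34-fold between group means.

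Pro-survival BCL2 genes shifted little and not in a common direction. Of 4 tested, MCL1 rose, BCL2L1 and BCL2 fell and BCL2L2 did not pass, with a median log2 fold change of -0.13. BCL2L1, which encodes BCL-XL, was the most abundant, at 163.82, 146.23 and 146.62 FPKM in DMSO and 129.88, 128.86 and 126.88 FPKM in cinobufagin libraries. All treated libraries were lower, and it fell by 0.24 on the log2 scale (adjusted p = 0.000836 by limma, SE 0.05). It shares 43.0% of its exon bases with the antisense gene ABALON, from which unstranded reads cannot be told apart. MCL1, a short-lived pro-survival protein, moved the other way, from 65.64, 68.69 and 68.67 FPKM to 75.16, 76.06 and 76.46 FPKM. Its groups did not overlap and its log2 fold change was 0.16 (adjusted p = 0.003 by limma, SE 0.04).

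BCL2 itself was low, at 3.22, 3.88 and 3.61 FPKM in DMSO and 2.89, 3.01 and 2.86 FPKM in cinobufagin libraries. It fell by 0.22 on the log2 scale (adjusted p = 0.0248 by limma, SE 0.08), but this call was lost without DMSO replicate 2 (0.104), DMSO replicate 3 (0.0626), cinobufagin replicate 1 (0.059) or cinobufagin replicate 3 (0.0695), its alternatives running from 0.00848 to 0.104. BCL2L2, which encodes BCL-W, was at 12.2 ± 0.412 and 11.8 ± 0.728 FPKM (SD, n = 3 each), with a 95% interval of its log2 fold change from -0.17 to 0.09. It shares 19.4% of its exon bases with the read-through gene BCL2L2-PABPN1. BCL2A1, a pro-survival gene of blood cells, was listed at 0 in all 6 libraries. BCL2L1 and MCL1 together supplied most of the pro-survival level. In DMSO libraries BCL2L1 made up 64.6% ± 2.12 and MCL1 28.8% ± 1.65 of the summed FPKM of the 5 genes, and in cinobufagin libraries 58.6% ± 0.340 and 34.6% ± 0.528 (SD, n = 3 each, not tested).

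Genes of the BAX and BAK type were level or lower. BOK, a relative of BAX whose protein is controlled by degradation, stood at 73.13, 66.12 and 72.80 FPKM in DMSO and at 50.49, 53.79 and 53.58 FPKM in cinobufagin libraries. It was lower in every treated library and fell by 0.42 on the log2 scale (adjusted p = 1.58e-05 by limma, SE 0.05). BAX was at 160.46, 156.21 and 143.53 FPKM in DMSO and 142.98, 131.87 and 136.14 FPKM in cinobufagin libraries. The groups were separated by less than 1 FPKM at their nearest values, with a log2 fold change of -0.16 (adjusted p = 0.0125 by limma, SE 0.05). This call was lost after quantile normalization (log2 fold change -0.08, adjusted p = 0.115 by limma) and without cinobufagin replicate 2 (0.0575), its alternatives running from 0.00309 to 0.115. BAK1 was at 13.2 ± 0.915 and 14.3 ± 1.09 FPKM (SD, n = 3 each) and did not pass (adjusted p = 0.174 by limma). BCL2L13, an atypical relative that acts as a mitophagy receptor, was at 61.34, 60.88 and 58.61 FPKM in DMSO and 71.83, 66.31 and 67.55 FPKM in cinobufagin libraries. It rose by 0.18 on the log2 scale without overlap (adjusted p = 0.00313 by limma, SE 0.04).

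Caspase genes moved in both directions. Of 7 tested, CASP9 rose, CASP8 and CASP1 fell, CASP4 was called lower after passing the filter only through DMSO libraries, and CASP2, CASP6 and CASP10 did not pass, with a median log2 fold change of -0.18. CASP9 (gene ID 842, chromosome 1, 15490832 to 15526534), the initiator caspase of the mitochondrial route, stood at 4.65, 3.46 and 4.06 FPKM in DMSO and at 6.65, 7.92 and 6.70 FPKM in cinobufagin libraries. Every treated library was higher, with a log2 fold change of 0.68 (adjusted p = 5.57e-05 by limma, SE 0.09). CASP8, the initiator caspase of the death receptor route, was at 8.23, 8.80 and 8.30 FPKM in DMSO and 6.38, 5.39 and 5.45 FPKM in cinobufagin libraries. It was lower in every treated library and fell by 0.49 on the log2 scale (adjusted p = 8.66e-05 by limma, SE 0.07).

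CASP1, an inflammatory caspase that matures interleukin 1 beta, was at 5.36, 7.30 and 5.77 FPKM in DMSO and 4.21, 3.82 and 3.02 FPKM in cinobufagin libraries. Its groups did not overlap and it fell by 0.61 on the log2 scale (adjusted p = 0.000536 by limma, SE 0.11), although its reads are uncertain because the neighbouring gene CARD16 is a near copy of part of it. CASP4, a sensor of bacterial lipopolysaccharide, was near the filter at 1.57, 1.76 and 1.88 FPKM in DMSO and 0.89, 1.16 and 0.69 FPKM in cinobufagin libraries. Its log2 fold change was -0.52, and -0.88 with a pseudocount of 0.1. Because it entered the fit only through the group where it was high, its call (adjusted p = 0.000764 by limma) is not independent support for a difference. Among the caspases that did not pass, CASP2 was at 7.72 ± 0.345 and 7.23 ± 0.672 FPKM, CASP6, an executioner, at 6.03 ± 0.495 and 6.50 ± 0.243, and CASP10, a relative of CASP8, at 1.48 ± 0.442 and 1.17 ± 0.117 (SD, n = 3 each; adjusted p = 0.305, 0.25 and 0.191 by limma).

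**Figure D3:**
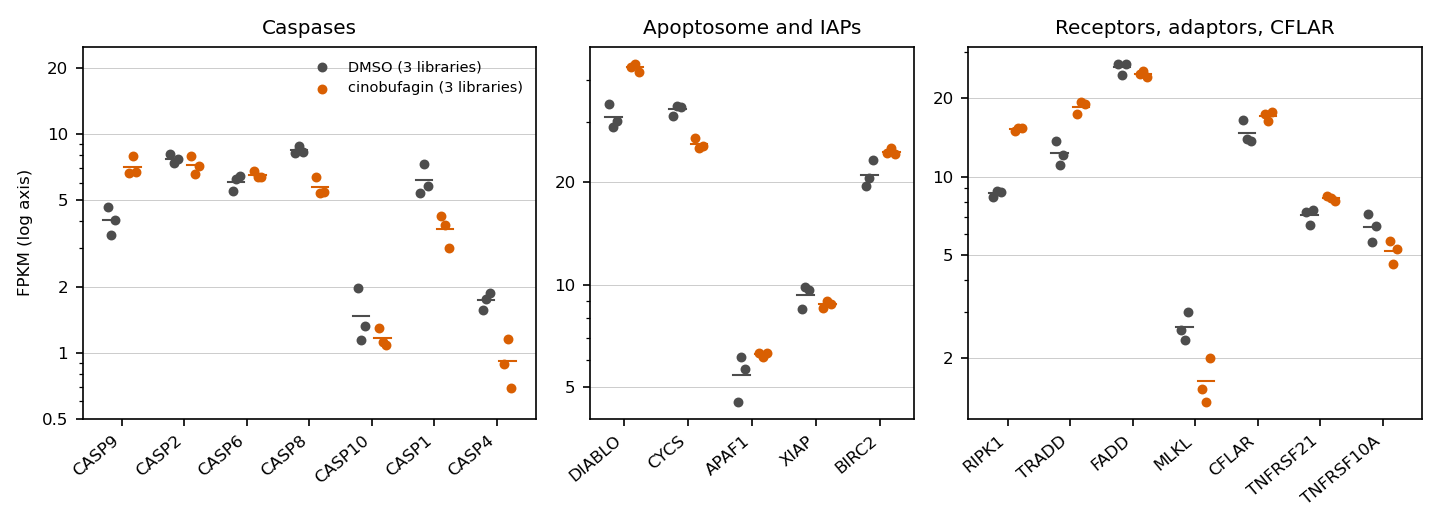
FPKM on a log axis in each of 3 DMSO (grey) and 3 cinobufagin (orange) libraries, with lines at the group means, for caspases (left), apoptosome and IAP genes (middle) and receptors, adaptors and CFLAR (right). CASP9, DIABLO, RIPK1 and TRADD lie higher and CASP8, CASP1, CASP4, CYCS and MLKL lie lower in all 3 cinobufagin libraries.

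Genes of proteins released from mitochondria moved in opposite directions. DIABLO, which encodes SMAC, an antagonist of IAPs, was at 34.01, 29.13 and 30.24 FPKM in DMSO and 43.76, 44.56 and 42.32 FPKM in cinobufagin libraries. All treated libraries were higher, with a log2 fold change of 0.47 (adjusted p = 1.76e-05 by limma, SE 0.06). CYCS, the gene of cytochrome c, was lower, at 31.39, 33.53 and 33.35 FPKM in DMSO and 26.95, 25.21 and 25.55 FPKM in cinobufagin libraries. It fell by 0.33 on the log2 scale without overlap (adjusted p = 8.91e-05 by limma, SE 0.05). GENCODE 29 names 40 pseudogenes after CYCS, so its reads are uncertain, and DIABLO shares 16.8% and 14.3% of its exon bases with 2 other protein-coding genes. APAF1, the scaffold of the apoptosome, was at 4.54, 6.13 and 5.67 FPKM in DMSO and 6.29, 6.15 and 6.32 FPKM in cinobufagin libraries. It did not pass (adjusted p = 0.0928 by limma), and passed without DMSO replicate 2 (0.0251), its alternatives running from 0.0251 to 0.339.

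Of 5 listed genes of IAPs and caspase inhibitors tested, 2 rose and 0 fell, and 3 did not pass, with a median log2 fold change of -0.04. The IAP gene BIRC5, counted in another list given further on, fell by 1.73 on the log2 scale. BIRC2, which encodes the ubiquitin ligase cIAP1 of the TNF receptor complex, was at 19.47, 20.58 and 23.20 FPKM in DMSO and 24.40, 25.19 and 24.31 FPKM in cinobufagin libraries. The treated libraries were higher throughout, with a log2 fold change of 0.22 (adjusted p = 0.00782 by limma, SE 0.06). CFLAR, a catalytically inactive relative of CASP8 that blocks its activation, was at 16.56, 13.89 and 13.73 FPKM in DMSO and 17.40, 16.32 and 17.74 FPKM in cinobufagin libraries. Its groups overlapped through DMSO replicate 1 and cinobufagin replicate 2, and its log2 fold change of 0.21 passed (adjusted p = 0.0195 by limma, SE 0.07).

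The CFLAR call was lost without a filter (adjusted p = 0.0537 by limma), after quantile normalization (0.0829) or median centring (0.0607), and without DMSO replicate 2 (0.0678), DMSO replicate 3 (0.0779), cinobufagin replicate 1 (0.0575) or cinobufagin replicate 3 (0.072), its alternatives running from 0.000905 to 0.0829. XIAP, an IAP that blocks CASP9 directly, was at 9.34 ± 0.733 and 8.78 ± 0.220 FPKM (SD, n = 3 each), with a 95% interval of its log2 fold change from -0.22 to 0.07. The giant ubiquitin ligase gene BIRC6 was at 10.2 ± 0.821 and 9.87 ± 0.306 FPKM, not passing (adjusted p = 0.574 by limma). BIRC3, which encodes cIAP2, was at 2.04 ± 0.329 and 1.73 ± 0.187 FPKM, not passing (adjusted p = 0.189 by limma). It passed as lower without DMSO replicate 1 (0.0364), its alternatives running from 0.0364 to 0.46.

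Of 3 death receptor genes tested, 1 rose and 2 fell, each by less than 0.3 on the log2 scale. TNFRSF1A, the main TNF receptor, was at 65.36, 59.24 and 60.31 FPKM in DMSO and 52.65, 57.91 and 52.58 FPKM in cinobufagin libraries. It was lower in every treated library and fell by 0.18 on the log2 scale (adjusted p = 0.0105 by limma, SE 0.05). TNFRSF10A, a receptor for the death ligand TRAIL, was at 7.16, 5.62 and 6.43 FPKM in DMSO and 5.67, 4.61 and 5.25 FPKM in cinobufagin libraries. Its groups overlapped narrowly and it fell by 0.26 on the log2 scale (adjusted p = 0.0231 by limma, SE 0.09). That call was lost without a filter (adjusted p = 0.0684 by limma) and without DMSO replicate 1 (0.0883), DMSO replicate 3 (0.0511) or cinobufagin replicate 2 (0.0983), its alternatives running from 0.00633 to 0.0983.

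TNFRSF21, which encodes death receptor 6, was at 7.31, 6.53 and 7.41 FPKM in DMSO and 8.39, 8.27 and 8.07 FPKM in cinobufagin libraries. It rose by 0.20 on the log2 scale without overlap (adjusted p = 0.0182 by limma, SE 0.06), a call lost after median centring (0.0521) and without DMSO replicate 2 (0.0825) or cinobufagin replicate 1 (0.0551), its alternatives running from 0.0144 to 0.0825. TNFRSF10D, a TRAIL receptor that does not transmit a death signal, was at most 0.13 FPKM and was not tested.

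Among the adaptor and necroptosis genes, 2 of 4 tested rose, 1 fell and FADD did not pass. RIPK1 (gene ID 8737, chromosome 6, 3063991 to 3115187), the kinase that directs TNF signalling toward survival, apoptosis or necroptosis, stood at 8.35, 8.83 and 8.69 FPKM in DMSO and at 14.97, 15.42 and 15.40 FPKM in cinobufagin libraries. The nearest values of the groups were over 6 FPKM apart, with a log2 fold change of 0.76 (adjusted p = 2.12e-07 by limma, SE 0.05). TRADD, the adaptor that joins RIPK1 to TNFRSF1A, was at 13.64, 11.12 and 12.13 FPKM in DMSO and 17.36, 19.32 and 18.95 FPKM in cinobufagin libraries. It rose by 0.56 on the log2 scale without overlap (adjusted p = 3.08e-05 by limma, SE 0.07).

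MLKL, the pseudokinase that permeabilises the plasma membrane in necroptosis, was at 2.57, 2.35 and 3.02 FPKM in DMSO and 1.52, 1.36 and 2.01 FPKM in cinobufagin libraries. It was lower in every treated library and fell by 0.48 on the log2 scale (adjusted p = 0.00182 by limma, SE 0.11). FADD, the adaptor that recruits CASP8 to receptors, was at 26.3 ± 1.43 and 24.8 ± 0.648 FPKM (SD, n = 3 each) and did not pass (adjusted p = 0.183 by limma). An antisense gene covers 54.9% of its exon bases.

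Ratios of FPKM within a library do not depend on the library total. The pairs given here join proteins known to act on each other, the necroptosis genes RIPK1 and MLKL, which are not direct partners, or the extremes of the list. They were chosen after their values were seen, and were not tested. MCL1 stood at 5.27, 4.98 and 5.18 times its partner PMAIP1 in DMSO and at 8.96, 9.67 and 9.56 times in cinobufagin libraries. BCL2L1 stood at 17.1, 14.4 and 15.7 times HRK in DMSO and at 33.6 times in each of the 3 cinobufagin libraries. Relative to BAD, BCL2L1 went the other way, from 3.82 ± 0.244 to 2.51 ± 0.0195 (SD, n = 3 each). The ratio of BCL2L1 to BAX was 0.993 ± 0.0493 and 0.939 ± 0.0350, with overlapping groups.

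For caspase control, the ratio of DIABLO to XIAP went from 3.36 ± 0.560 to 4.96 ± 0.143 and that of CFLAR to CASP8 from 1.75 ± 0.232 to 3.00 ± 0.265, without overlap between groups. The ratio of RIPK1 to MLKL was 3.29 ± 0.442 in DMSO and 9.62 ± 1.85 with cinobufagin (SD, n = 3 each). MLKL was low, at 1.52, 1.36 and 2.01 FPKM in cinobufagin libraries, so small differences in it move this ratio. BMF was below HRK in each DMSO library, at 0.241 ± 0.0212 times its level, and above it in each cinobufagin library, at 2.38 ± 0.0749 times.

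**Figure D4:**
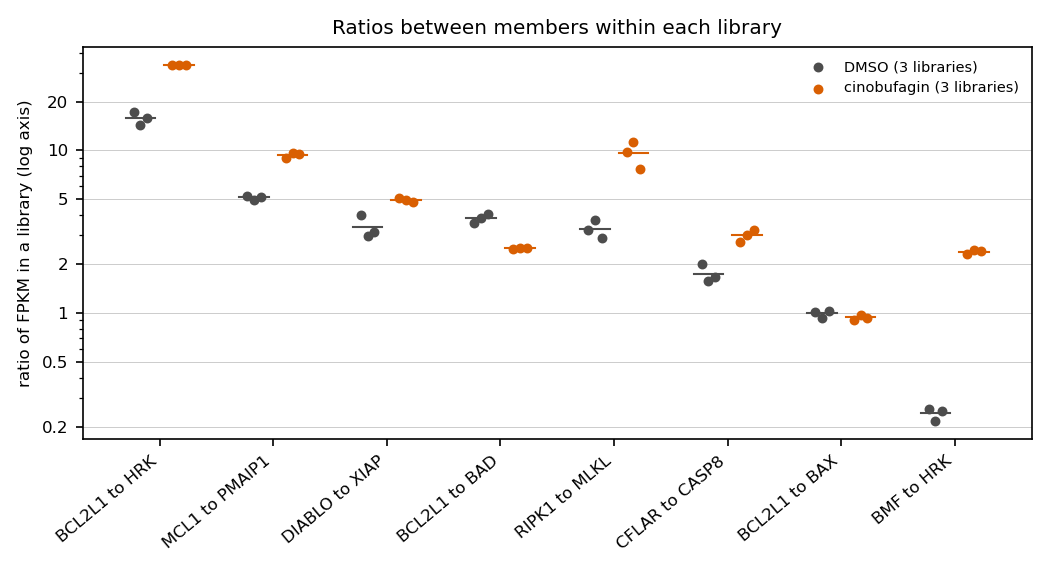
Ratio of FPKM between paired members within each library on a log axis, for 3 DMSO (grey) and 3 cinobufagin (orange) libraries, with lines at the group means. The ratio of BMF to HRK goes from 0.241 to 2.38, those of BCL2L1 to HRK and MCL1 to PMAIP1 are higher and that of BCL2L1 to BAD is lower with cinobufagin, and that of BCL2L1 to BAX overlaps between groups.

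Several members are neighbours in the genome. On chromosome 2 CFLAR, CASP10 and CASP8 follow each other on the same strand with gaps of 6.19 and 4.04 kb in GENCODE 29. There CFLAR rose by 0.21, CASP10 did not pass and CASP8 fell by 0.49 on the log2 scale. On chromosome 22 BCL2L13 and BID lie 3.28 kb apart on opposite strands, and BCL2L13 rose by 0.18 while BID fell by 0.60. BIRC3 and BIRC2 lie 7.81 kb apart on chromosome 11, where BIRC2 rose and BIRC3 did not pass. CASP4 and CASP1 lie 56.0 kb apart on chromosome 11, where CASP1 fell and CASP4 had a log2 fold change of -0.52 on passing the filter only through DMSO libraries.

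The promoter windows were searched for motifs of factors in the list of BH3-only gene regulators. The motifs were GTAAACA for FOXO factors, TGATGNAA for ATF4 with CHOP, TTTNNCGC for E2F and TGANTCA for AP-1. N was taken as any base, so a match to a pattern with N need not be a site of the named factor. Neither BMF window held a match to any of them, which says only that these letters are not in these windows. HRK held a single match, TGATGTAA, from 75 to 68 bases before the start, shown in capitals in its window and overlapping no other motif searched. That motif was found in 3.15% of the 35093 windows of the same length in the table, and in 2 of the 57 windows of 32 member genes. These were the windows of HRK and of BCL2A1, which was listed at 0 FPKM in every library. The FOXO motif was found in 2.98% of all windows and among members in BCL2L11, the E2F motif in 5.92% and in BCL2L1, and the AP-1 motif in 6.57% and in BBC3, BCL2L13, CASP8 and CFLAR. A match is a description of letters, not of binding.

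Other genes of the same pathways, from lists drawn up by role with earlier results of these data known, were counted in the same fit. Of 96 tested, 34 rose and 34 fell, and 28 did not pass, which is 70.8% called against 67.7% of all genes tested. Of the 6 regulators of BH3-only genes, 2 rose and 4 fell. FOXO3 and FOXO1, forkhead factors known to induce BH3-only genes, rose by 0.45 and 0.33 on the log2 scale. DDIT3, which encodes the stress factor CHOP, fell by 1.35 and its target TRIB3 fell by 2.23.

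Of 9 genes in a list of MCL1 turnover genes and the dynein light chains DYNLL1 and DYNLL2, 5 rose and 1 fell, and 3 did not pass. DYNLL2, known to bind BMF, was among the rises and went from 16.0 ± 0.928 to 36.3 ± 2.46 FPKM (SD, n = 3 each). Its change was 1.13 on the log2 scale (adjusted p = 2.38e-08 by limma). DYNLL1 was far more abundant, at means of 284.9 FPKM in DMSO and 291.2 FPKM with cinobufagin. It did not pass (log2 fold change 0.03, adjusted p = 0.469 by limma). The ubiquitin ligase adaptor BTRC rose by 0.56 and the deubiquitinase USP13 fell by 0.21 on the log2 scale. Of 17 other BCL2-related genes, 8 rose and 3 fell, and 6 did not pass. BNIP3L and BNIP3, mitophagy receptors with a BH3-like stretch, rose by 0.58 and 0.54, while the HSP70 co-chaperone BAG2 fell by 0.69 and BNIP1 fell by 0.31.

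Of 15 mitochondrial genes linked to cell death, 3 rose and 7 fell, and 5 did not pass. The outer membrane channel VDAC3 rose by 0.42 and the nucleotide carrier SLC25A4 by 0.36, while PPIF, the cyclophilin of the permeability transition, fell by 0.81 and SLC25A6 fell by 0.59 on the log2 scale. Of caspase substrates and related genes named by the same rule, BIRC5, an IAP that works mainly in mitosis, fell by 1.73, the lamin gene LMNA fell by 0.84 and ACIN1 rose by 0.21.

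Among 7 other death receptors and ligands tested, 2 were higher, 4 lower and 1 did not pass. TNFRSF12A, the receptor of the ligand TWEAK, rose by 0.51, its ligand gene TNFSF12 fell by 0.88, the decoy receptor TNFRSF10C rose by 0.34 and TNFRSF25, which passed the filter only through DMSO libraries, fell by 0.75 on the log2 scale. The ligand genes TNF and TNFSF10 were at most 0.06 FPKM and FASLG was listed at 0. Of 19 genes of the TNF receptor complex, 9 rose and 7 fell, and 3 did not pass. The linear ubiquitin ligase RNF31 rose by 0.30 and TAB1 by 0.25, while TNFAIP3, an inhibitor of NF-kappaB, fell by 0.59 and TRAF2 fell by 0.52.

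Of 8 inflammasome and pyroptosis genes tested, 2 rose and 4 fell, and 2 did not pass. PYCARD, the adaptor that recruits CASP1, went from 8.21 ± 1.54 to 3.39 ± 0.425 FPKM (n = 3 each, SD; a change of -1.06 on the log2 scale, adjusted p = 5.45e-06 by limma) and the sensor NLRP1 fell by 0.49. The genes GSDMB and NINJ1 rose by 0.54 and 0.39 on the log2 scale. Of 6 other necroptosis genes tested, 2 rose and 1 fell, and 3 did not pass, with HSP90AA1, a chaperone of RIPK1, higher by 0.53, the inositol kinase gene IPMK higher by 0.21 and the phosphatase PGAM5 lower, with a log2 fold change of -0.25.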

How the data were processed

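The authors deposited FPKM per gene, per the file headers, with 2 decimals. Bowtie2, RSEM 1.3.1, DESeq2 1.4.5 and the build GRCh38.p13 are named in the submitters' processing notes with no role, and the sources used here do not give the strand setting or annotation. Columns headed mock were assumed to be the DMSO libraries of like number, which matters only where a single DMSO replicate is named. Entries without a gene ID, 19 in all, were left out, and gene IDs were matched to symbols with RefSeq's gene table on GRCh38.p14, used for names only (17881 of 17945 matched). Positions and exon overlaps came from GENCODE 29 on GRCh38. Of the 40 members found, 32 had promoter windows.

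Genes that reached 1 FPKM in 3 or more of 6 libraries were fitted together with limma 3.58.1 in R 4.3.3, as log2 of FPKM + 1 with the mean-variance trend, cinobufagin minus DMSO, without a block. Benjamini-Hochberg adjustment covered every gene in the fit, and an adjusted p under 0.05 was a call. SE denotes the moderated standard error from limma, and SD the spread of the 3 libraries within a group. FPKM keep no read counts, so no count model was used and counting error is not known. The fit was tested on simulated data in which 200 of 11335 genes were changed by 0.5 or 1 on the log2 scale. It recovered 78% of the changes of 0.5 and 99% of those of 1, with 9 false calls. Smaller changes, and changes in most genes, were not simulated.

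By the naming rule, called members among the 3 largest rises or falls of their role were given in every library, and APAF1 was added after its values were seen. Of each other list the 2 largest rises and falls were named. The count of one such list and some of its genes are not reported here. The members and lists were chosen with earlier results of these data known. The alternatives were a pseudocount of 0.1, no filter, a filter of 5 FPKM, no trend, quantile normalization, median centring, the replicate number as a block and leaving out each library in turn. Figures were drawn with matplotlib 3.10.9.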

Additional observations from a re-analysis of the deposited data

How the results depend on the processing

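Under 13 alternatives, 475 values of the 37 tested members were recomputed. Of these, 451 kept both direction and call, 20 lost the call and 3 gained it, each named with its member above. BCL2L2, which did not pass in any fit, changed sign without cinobufagin replicate 3 (log2 fold change 0.00654; -0.0724 to 0.00654 with one library left out). Of the 26 called members, 21 kept their call wherever they could be fitted, and BCL2, CASP4 and MLKL were under the filter of at least 5 FPKM. The number of members called was 23 to 27 over all alternatives. No scaling moved the median of all genes tested by more than 0.05 on the log2 scale.

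Same-numbered libraries did not deviate together (Pearson's r of deviations -0.049, -0.105 and -0.00906 for replicates 1, 2 and 3), while some libraries of different number did slightly more (0.162 for DMSO 2 with cinobufagin 1 and 0.127 for DMSO 3 with cinobufagin 2). The deposited control columns are headed mock, and that their numbers are the DMSO replicate numbers is an assumption, so the numbers were not treated as a pairing. With the replicate number as a block 26 members were called, 11 higher and 15 lower, and the block changed no member's call. DMSO replicate 1 lay farthest from the DMSO median in 20 of 37 members. The like share over all genes tested was not computed, and that library also had the highest summed FPKM, 560721. FPKM rounded to 2 decimals limit what can be said of genes under about 1 FPKM.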
